A study of Mus musculus with 6 samples.

Results

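The endothelial receptors and junction genes described here are 10 genes that mark the cells lining blood vessels: Cdh5, Pecam1, Kdr, Flt1, Tek, Tie1, Egfl7, Esm1, Vwf and Emcn. They were found by matching the RefSeq accession of each array probe to a gene symbol, and all 10 had a probe, of 37153 genes and unnamed features on the array. Kdr had 2 probes and each of the others had 1. The levels were measured in 6 cultures on 1-colour Agilent mouse arrays, with 2 arrays in each of 3 groups. WT MDSC are muscle-derived stem cells, the last cells to adhere in serial preplating of digested hindlimb muscle, from wild-type male mice 5 weeks old. Mstn-null MDSC were isolated the same way from mice of that age and sex labelled null for Mstn, which encodes myostatin, a protein that muscle secretes and that restrains its growth. Both MDSC groups were at passage 1 and had 2 separate isolations, numbered 1 and 2. W4 ESC are male mouse embryonic stem cells of 1 line, taken at passages 12 and 15, so their 2 arrays show the spread between passages of 1 line. No group was treated. The labels do not give the myostatin allele or say whether an isolation pooled animals. They call the ESC colonies feeder free, while the protocol describes growth on inactivated embryonic fibroblasts that were removed by a short plating step before RNA was taken.

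Endothelial cells line vessels and hold together through VE-cadherin (Cdh5) at adherens junctions and PECAM-1 (Pecam1) along cell borders. VEGF acts on them through VEGFR2 (Kdr), the main signalling receptor, while VEGFR1 (Flt1) binds VEGF tightly and can act as a decoy. Tek (Tie2) is the angiopoietin receptor and Tie1 is its partner. Egfl7 and Esm1 (endocan) are secreted, von Willebrand factor (Vwf) is stored in endothelial cells and in megakaryocytes and platelets, and endomucin (Emcn) is a sialomucin of capillary and venous endothelium. Several of these genes are not limited to endothelium: PECAM-1 is also known on mouse ES cells, leukocytes and platelets, and skeletal muscle itself is a tissue dense in capillaries.

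Between 53.3% and 64.6% of the 59305 probe spots of an array were well above background by the scanner software's own test, and no spot was saturated. Signals are given as log2 of the processed intensity relative to the array's 75th percentile, so 0 means a signal at that percentile. Over the 25057 features tested, MDSC arrays correlated with ESC arrays at r = 0.81 to 0.85, and the 2 arrays of a group at 0.98 to 0.99. All 12 pluripotency markers were lower in MDSC, beside 31.4% of all features, and Myog, a muscle differentiation factor, gave a signal above background in MDSC only. The Mstn probe A_51_P384901 read -4.90 and -6.71 in the WT isolations, -3.06 and -2.47 in the isolations labelled Mstn-null, and -7.23 and -6.85 in ESC. It was well above background only on the arrays labelled Mstn-null, at least 4.07-fold above WT, and this difference did not pass limma's test (adjusted p = 0.135). Whether the probe lies in a deleted part of the gene is not given in the sources used here, so the group is called by its label below. The WT arrays were alone on 1 slide and the other 4 arrays shared another, so slide and genotype cannot be told apart in comparisons of WT with either other group.

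The members differed in which cultures gave a signal at all. Pecam1, Kdr, Flt1, Tek, Egfl7 and Vwf were well above background on all 6 arrays. Cdh5 and Esm1 passed that test on each of the 4 MDSC arrays and on neither ESC array. Tie1 and Emcn were well above background on no array, so 8 of the 10 members could be tested. The cultures labelled MDSC therefore carried the signals of some endothelial markers and lacked a measurable signal for others, and no culture showed the full set.

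**Figure D1:**
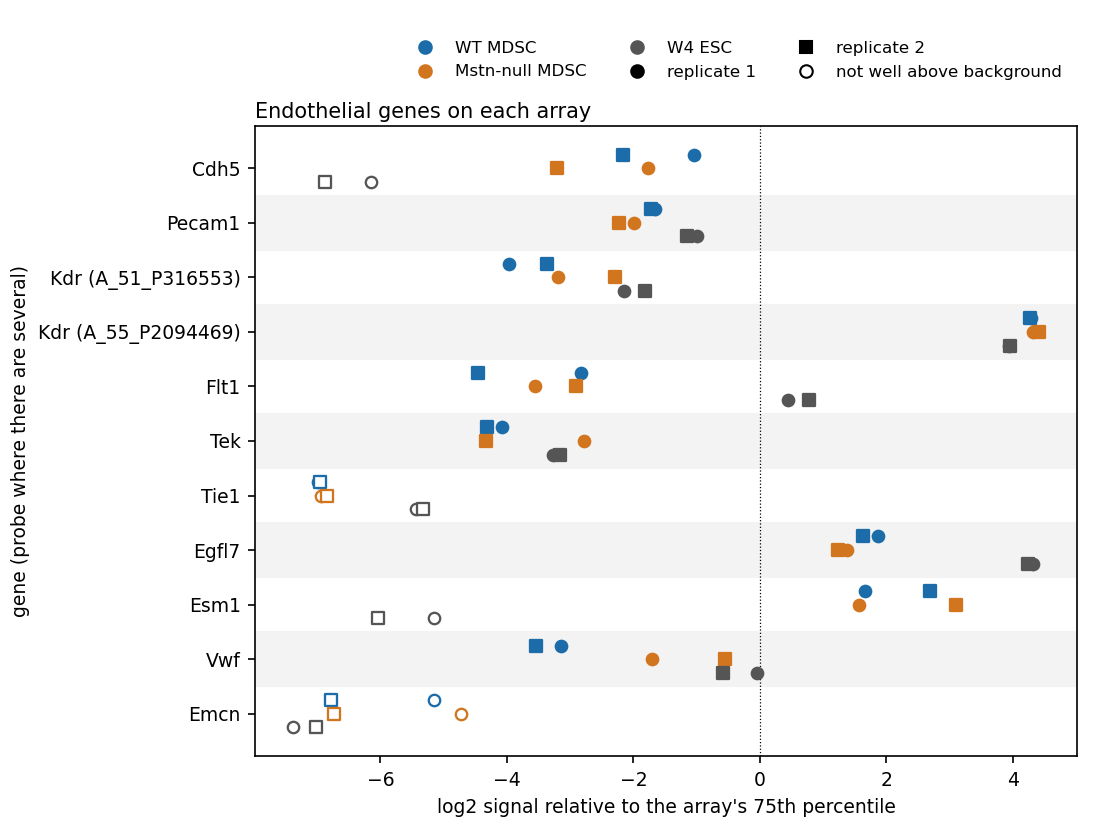
Signal of each endothelial gene on each of the 6 arrays, as log2 relative to the array's 75th percentile (x axis), with 1 row per gene or Kdr probe. Circles are isolation 1 or passage 12, squares isolation 2 or passage 15, and open symbols are probes not well above background. Esm1 and Cdh5 are to the right in MDSC, from 1.57 to 3.09 and from -3.21 to -1.04, while Flt1 and Egfl7 are to the right in ESC.

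The upstream sequences are shown for 3 members that span the outcomes: Esm1, the largest rise in MDSC against ESC, Flt1, the largest fall, and Tie1, which had no measurable signal. RefSeq's promoter table (GRCm38.p6) held 7 of the 10 members in 9 windows; Cdh5, Pecam1 and Vwf were not matched. The 250 bases before each start site were searched for AGGAAG on both strands (CTTCCT on the other). AGGAAG is 1 form of the sites of ETS factors, a family that includes known regulators of endothelial genes. Other forms were not searched, so a window without a match may still hold an ETS site. Capitals mark the matches, and sequences run 5′ to 3′ on the gene's strand. 
Esm1: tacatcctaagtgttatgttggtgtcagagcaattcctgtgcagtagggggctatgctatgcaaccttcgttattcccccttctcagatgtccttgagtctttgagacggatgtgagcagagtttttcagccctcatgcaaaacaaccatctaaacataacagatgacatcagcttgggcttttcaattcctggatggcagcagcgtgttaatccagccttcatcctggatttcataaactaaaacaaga
Flt1: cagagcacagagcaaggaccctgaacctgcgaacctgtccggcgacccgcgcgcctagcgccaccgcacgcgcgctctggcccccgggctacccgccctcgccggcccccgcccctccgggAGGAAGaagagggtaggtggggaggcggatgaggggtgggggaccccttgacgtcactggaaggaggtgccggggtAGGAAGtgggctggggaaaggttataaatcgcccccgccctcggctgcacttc
Tie1: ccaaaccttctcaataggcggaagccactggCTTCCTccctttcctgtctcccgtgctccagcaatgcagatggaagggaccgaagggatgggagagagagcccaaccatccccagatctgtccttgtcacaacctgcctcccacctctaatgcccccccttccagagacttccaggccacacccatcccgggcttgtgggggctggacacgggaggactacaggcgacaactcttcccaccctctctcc
The Esm1 window is at chr13:113209409-113209658 (plus strand), has 3 CpG dinucleotides and a GC content of 44.0%, and holds no match. The Flt1 window, at chr5:147726012-147726261 (minus strand), has 23 CpG dinucleotides, a GC content of 70.4% and 2 matches, whose first bases are at -129 and -53 from the start site. At chr4:118489850-118490099 (minus strand), the Tie1 window has 6 CpG dinucleotides, a GC content of 60.4% and 1 match. Over all 32851 promoter windows of this length the median was 6 CpG dinucleotides and 52.4% GC, and 29.5% of windows held a match. Among the members, 5 of 9 windows, belonging to 4 of 7 genes (Flt1, Tie1, Egfl7 and Emcn), held at least 1.

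The study set MDSC beside ESC to describe the potency of the muscle isolates from their expression, and in this comparison the members split in direction. Of the 8 tested, 2 rose in MDSC (Cdh5 and Esm1) and 4 fell (Pecam1, Flt1, Egfl7 and Vwf), while Kdr and Tek did not pass the test. Cdh5 and Esm1 met the filter on dim probes through the MDSC arrays alone, where they are high, so that they differ follows in part from how features were kept. Over all features tested, 59.6% passed in this comparison, 28.3% higher and 31.4% lower, and 6 of 8 members is not far above that share. For 6 of the 8 the MDSC and ESC arrays did not overlap, beside 69.1% of all features. The median difference over the 8 tested members was -0.74 on the log2 scale, beside -0.03 over all features. In WT alone 6 of 8 members passed against ESC, where 53.1% of features did, and in Mstn-null 5 of 8, where 54.2% did. In these bulk cultures, fewer cells of a type and less RNA per cell cannot be told apart. Adjusted p-values are from limma with Benjamini-Hochberg adjustment over 25057 features; with groups of 4 and 2, an exact permutation test cannot go below p = 0.0667. Among the 4 arrays of the second slide alone (Mstn-null and ESC), Cdh5 differed by 4.02, Esm1 by 7.93, Flt1 by -3.84, Egfl7 by -2.97 and Pecam1 by -1.03, and these 5 passed limma's test (adjusted p from 0.00189 to 0.0158), while Vwf did not (-0.82, adjusted p = 0.219). In that fit 51.7% of all features passed.

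Among the receptors, Flt1 had the largest difference. Its signal was -2.82 and -4.46 in the WT isolations, -3.56 and -2.90 in the Mstn-null isolations, and 0.45 and 0.78 in ESC. Every MDSC array was below both ESC arrays. The reading of WT isolation 2 was close to the lowest signal well above background on its array (-4.68), so the size rests partly on signals near background. The MDSC mean fell by 4.05 ± 0.51 (SE) on the log2 scale, 16.5-fold (limma adjusted p = 0.00261), and against ESC the difference was -4.25 in WT and -3.84 in Mstn-null (limma adjusted p = 0.00446 and 0.00547). Those WT and Mstn-null comparisons share the 2 ESC arrays. The WT difference was -5.07 without WT isolation 1 and -3.43 without isolation 2, and with normexp background correction the MDSC difference was -2.98, and all 3 passed.

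Kdr gave no single answer because its probes differed in direction. Probe A_55_P2094469, with 1 spot per array, read 4.29 and 4.27 in WT, 4.31 and 4.42 in Mstn-null, and 3.94 and 3.96 in ESC. Its MDSC mean was above the ESC mean by 0.37 ± 0.13, which did not pass (limma adjusted p = 0.0581), though it did with normexp background correction, a variance trend and robust fit, or only features well above background on all arrays (limma adjusted p = 0.0249, 0.0277 and 0.0448). Probe A_51_P316553, spotted 10 times, read -3.96 and -3.36 in WT, -3.19 and -2.28 in Mstn-null, and -2.16 and -1.81 in ESC. All 4 MDSC arrays were below both ESC arrays, and the mean fell by 1.21 ± 0.34 in the limma fit across probes (adjusted p = 0.0296, with 58.9% of probes passing). Median spot intensity of that probe was between 34.3 and 108 in MDSC and between 142 and 184 in ESC, while the other probe read from 9721 to 11909. No value here shows which transcripts each probe reads, so no direction is given for Kdr.

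**Figure D2:**
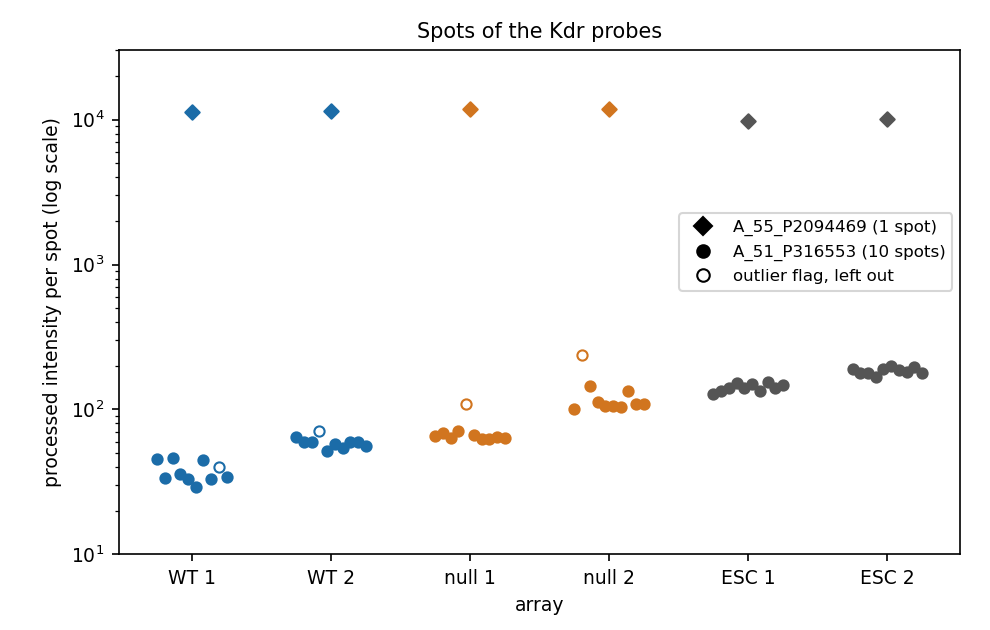
Processed intensity of every spot of the 2 Kdr probes (log scale) on each array, with open circles for spots carrying the scanner software's outlier flag, which were left out. The 1-spot probe lies between 9721 and 11909 on all arrays, whereas the 10-spot probe runs from a median of 34.3 in WT isolation 1 to 184 in ESC passage 15.

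Tek did not pass the test between the cell types and was uneven between isolations. Its signal was -4.07 and -4.31 in WT, -2.77 and -4.34 in Mstn-null, and -3.28 and -3.16 in ESC. Mstn-null isolation 1 was the highest of the 6 arrays, and the other MDSC arrays were the lowest. The MDSC difference was -0.65 ± 0.45, with a 95% interval from -1.82 to 0.51 and limma adjusted p = 0.258, and without Mstn-null isolation 1 it was -1.05 (limma adjusted p = 0.0180). Tie1 read from -6.99 to -6.85 in MDSC and -5.44 and -5.32 in ESC, and passed the background test on no array. When dim probes were kept in the test, the Tie1 difference was -1.55 ± 0.15 (limma adjusted p = 0.00192), a difference between signals that are both not well above background, for which no fold is given.

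The junction genes parted from each other. Cdh5 read -1.04 and -2.17 in WT, -1.78 and -3.21 in Mstn-null, and -6.15 and -6.87 in ESC. All MDSC arrays were above both ESC arrays, and in both genotypes isolation 1 was the higher of the 2. The MDSC mean was -2.05 against an ESC mean of -6.51, a difference of 4.46 ± 0.55 (limma adjusted p = 0.00250), and since ESC was not well above background the size is a bound, at least 8.24-fold. Against ESC the bound was at least 11.2-fold in WT and at least 6.06-fold in Mstn-null. The Mstn-null difference was 4.02 and ran from 3.31 without isolation 1 to 4.73 without isolation 2. With normexp background correction, which adds a fixed offset to every signal, the MDSC difference was 1.70 (limma adjusted p = 0.00883). Such a bound sets the bright group's mean against the dim group's, taken per array as the higher of the probe's own signal and the lowest signal well above background. Each bound given here holds only for the scanner software's background subtraction: the normexp difference of Cdh5 is smaller than its bound.

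Pecam1 went the other way and by less. It read -1.66 and -1.71 in WT, -1.98 and -2.23 in Mstn-null, and -0.997 and -1.15 in ESC. The 3 groups did not overlap, with ESC highest and Mstn-null lowest. The MDSC mean fell by 0.83 ± 0.15, or 1.77-fold (limma adjusted p = 0.00793). In WT alone the fall was 0.62 ± 0.17 (limma adjusted p = 0.0341), and it no longer passed without any 1 array (adjusted p between 0.0599 and 0.108), nor with median centring (limma adjusted p = 0.0961), with dim probes kept (0.0579) or with only those 4 arrays in the fit (0.0659). Emcn read from -6.78 to -4.73 in MDSC and from -7.39 to -7.02 in ESC, and no value was well above background.

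Of the secreted members, Esm1 rose more than any other tested member. It read 1.66 and 2.69 in WT, 1.57 and 3.09 in Mstn-null, and -5.16 and -6.04 in ESC. MDSC and ESC did not overlap, and in both genotypes isolation 2 was the higher, the opposite order to Cdh5. The MDSC mean was 2.25 and the ESC mean -5.60, a difference of 7.85 ± 0.57 (limma adjusted p = 6.51e-04) and at least 155-fold as a bound. The size depends on how background is handled: with normexp correction the difference was 5.17 (limma adjusted p = 0.00103), which is smaller than that bound. Egfl7, in contrast, read 1.87 and 1.63 in WT, 1.38 and 1.24 in Mstn-null, and 4.32 and 4.24 in ESC. Every ESC array was above every MDSC array, and the MDSC mean fell by 2.75 ± 0.15, or 6.73-fold (limma adjusted p = 3.52e-04).

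Vwf varied within MDSC as well as between cell types. It read -3.14 and -3.53 in WT, -1.71 and -0.56 in Mstn-null, and -0.05 and -0.59 in ESC. The WT arrays were lowest, and Mstn-null isolation 2 lay among the ESC arrays. The MDSC mean fell by 1.92 ± 0.39 (limma adjusted p = 0.0109), which did not hold without ESC passage 12 (-1.65, limma adjusted p = 0.0670) or among the arrays of the second slide alone (-0.82, limma adjusted p = 0.219). In WT the difference from ESC was -3.02 ± 0.45 (limma adjusted p = 0.00536), and in Mstn-null it was -0.82 ± 0.45 (limma adjusted p = 0.179).

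**Figure D3:**
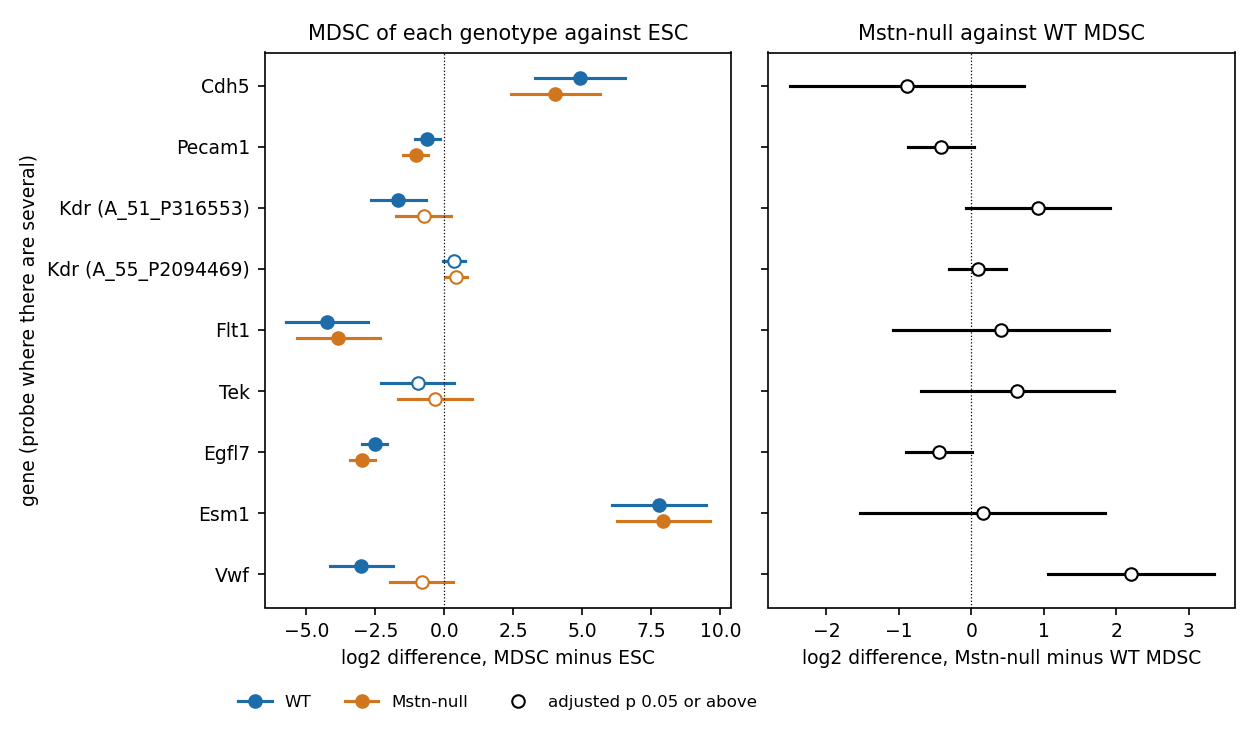
Log2 differences with 95% confidence intervals from limma fitted probe by probe: left, each MDSC genotype minus ESC, and right, Mstn-null minus WT MDSC. Filled symbols have an adjusted p under 0.05. Esm1 and Cdh5 are far to the right of 0 in both genotypes and Flt1, Egfl7 and Pecam1 to the left, while every symbol of the right panel is open.

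The genotypes were also compared, although WT and Mstn-null arrays were on separate slides, so slide and genotype cannot be told apart here. None of the 8 tested members passed limma's test between the cultures labelled Mstn-null and WT, and over all features 0% passed, with 14.7% at an unadjusted p under 0.05. The only member past that unadjusted threshold was Vwf, which read 2.20 ± 0.45 higher in Mstn-null on the log2 scale, or 4.61-fold, with a 95% interval from 1.06 to 3.35 (limma adjusted p = 0.128). Groups did not overlap for 4 of the 8 members, beside 51.4% of all features. Cdh5 differed by -0.89 ± 0.64, with an interval from -2.52 to 0.74 (limma adjusted p = 0.595). For Flt1 the difference was 0.41, from -1.09 to 1.91, and for Esm1 0.16, from -1.54 to 1.85 (limma adjusted p = 0.796 and 0.937). Intervals that were narrower and still included 0 were those of Pecam1, from -0.86 to 0.03, Egfl7, from -0.89 to 0.01, and Kdr's 1-spot probe, from -0.30 to 0.47. With 2 arrays against 2, an exact permutation test cannot go below p = 0.333.

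Markers of blood cells were also uneven between the MDSC arrays. Over the macrophage and myeloid list, 17 of 18 genes had a probe and all 17 were well above background on at least 1 array. The summed relative signal of the list was 70.1 and 50.3 in WT, 109 and 349 in Mstn-null, and 18.8 and 12.7 in ESC. In WT and ESC these sums rest largely on 1 gene, Itgam, which read 5.50 and 5.27 in WT and 3.95 and 3.06 in ESC. Itgam differed by -0.21 between Mstn-null and WT, so it did not follow the rest of the list. For the platelet and megakaryocyte list the sums were 17.7 and 10.6 in WT, 17.5 and 42.8 in Mstn-null, and 1.44 and 1.30 in ESC. Mean log2 signal of both lists put the MDSC arrays in the same order as Vwf, from WT isolation 2 through WT isolation 1 and Mstn-null isolation 1 to Mstn-null isolation 2 (the platelet sums set WT isolation 1 just above Mstn-null isolation 1), although ESC had low values of both lists and high Vwf. The fibroblast, vascular receptor and transcription factor lists took that order too, over unequal spans. From the lowest to the highest MDSC array, the mean ran from -2.49 to 3.34 in the myeloid list. It ran from -3.12 to -2.10 in the platelet list, 4.99 to 6.14 in the fibroblast list and 0.08 to 0.20 in the receptor list. In the transcription factor list it ran from -1.97 to -0.81. Among the platelet genes, Gp9, Gp1ba and Gp6 were well above background on no array, and Gata1 only in ESC. In the Mstn-null versus WT comparison, 0 of the 17 myeloid genes passed limma's test, while their median difference was 3.92. The part of these cells in the Vwf difference was not tested.

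**Figure D4:**
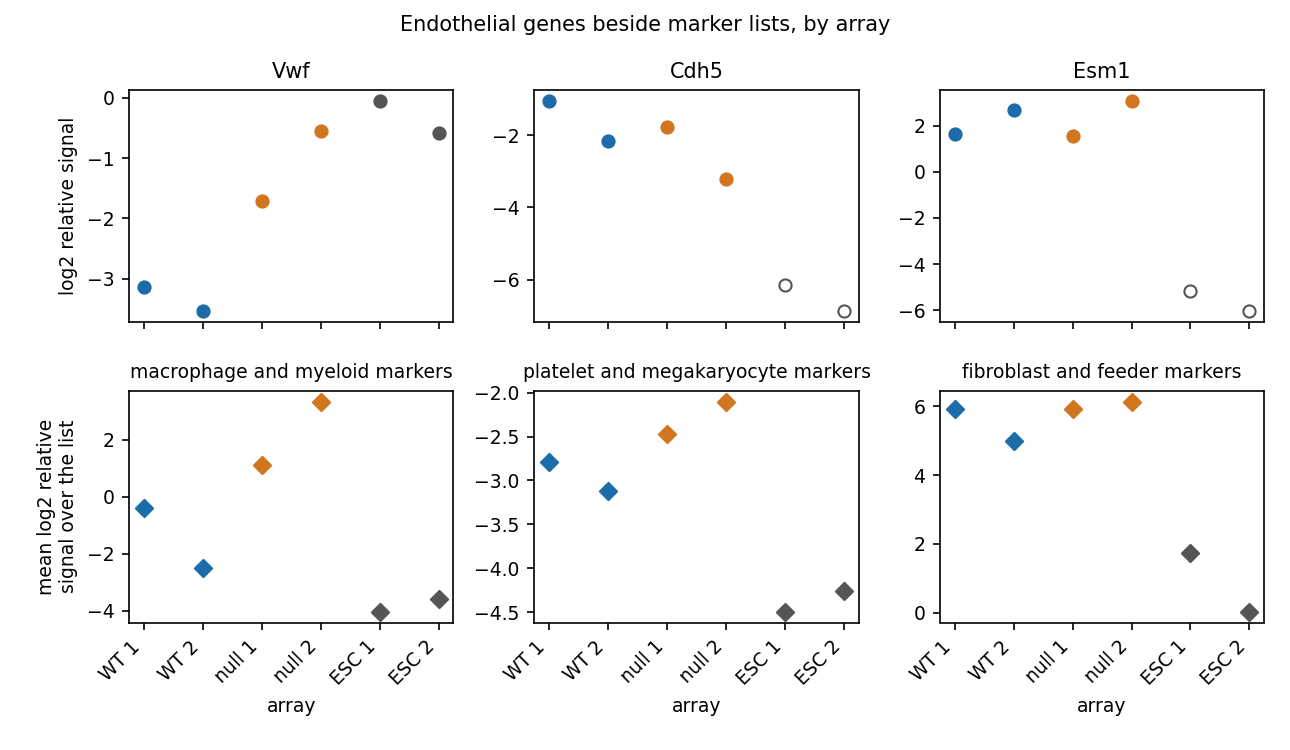
Upper panels show the log2 relative signal of Vwf, Cdh5 and Esm1 on each array, and lower panels the mean log2 relative signal of 3 marker lists; open symbols are probes not well above background. The MDSC arrays take the same order in Vwf and in all 3 list panels, with WT isolation 1 and Mstn-null isolation 1 nearly level in the fibroblast panel, and all 3 lists are higher in MDSC than in ESC.

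The fibroblast and feeder list, like the myeloid, platelet and myogenic lists, was higher in MDSC than in ESC, as Esm1 and Cdh5 were. Among the MDSC arrays its mean log2 signal was lowest in WT isolation 2 (4.99) and highest in Mstn-null isolation 2 (6.14). On those arrays Cdh5 read -2.17 and -3.21, and Esm1 2.69 and 3.09. In WT isolation 1 and Mstn-null isolation 1, both with a list mean of 5.93, Cdh5 read -1.04 and -1.78, and Esm1 1.66 and 1.57. Neither gene took the order of the list over the MDSC arrays. The list's summed relative signal was 1882 and 1030 in WT, 1644 and 2088 in Mstn-null, and 89.1 and 44.8 in ESC. Of its 12 genes, 11 rose in MDSC against ESC, where 28.3% of all features rose. The 2 largest rises were Dcn, a matrix proteoglycan, at 6.68 ± 1.48 (limma adjusted p = 0.0146), and Lox, a collagen-crosslinking enzyme, at 6.44 ± 0.26 (limma adjusted p = 1.78e-04). Dcn read 2.96 in ESC passage 12 and -2.05 in passage 15, and its difference was 9.18 without the first and 4.17 without the second. Of the 8 pericyte and smooth muscle genes tested, 4 rose and 1 fell. The part of fibroblast-like or perivascular cells in the Esm1 and Cdh5 differences was not tested.

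The other genes of the vascular pathways also held members of both directions. Of 12 vascular ligands tested, 6 rose in MDSC against ESC and 2 fell, with a median of 1.07. For these counts and those of the lists below, 28.3% of all features rose and 31.4% fell. Angpt4, an angiopoietin and so a ligand of Tek, was higher by 6.32 ± 0.50 (limma adjusted p = 7.83e-04), at least 33.5-fold, and Vegfd by 5.37 ± 0.64 (limma adjusted p = 0.00226). The falls were small, -0.53 ± 0.17 for Vegfb and -0.52 ± 0.17 for Vegfc (limma adjusted p = 0.0434 and 0.0456), and neither passed without any 1 of the 6 arrays (limma adjusted p from 0.0504 to 0.167). Of 16 vascular receptors and coreceptors tested, 10 rose and 3 fell, with a median of 2.16. Thbd (thrombomodulin) differed by 4.62 ± 0.48 and Tnfrsf1a, a TNF receptor, by 4.47 ± 0.43. In the other direction, Robo4, a guidance receptor of endothelial cells, differed by -3.40 ± 0.65 and Aplnr, the apelin receptor, by -1.70 ± 0.25. Each was well above background on 2 of the 4 MDSC arrays, so these sizes too rest partly on signals near background.

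Of 19 junction and adhesion partners tested, 6 rose in MDSC against ESC and 9 fell, with a median of -0.39. Vcam1, an adhesion molecule also found on muscle progenitors, was higher by 4.62 ± 0.46, and Cd34 by 3.50 ± 0.86. The Cd34 call was lost without Mstn-null isolation 1 (3.33, limma adjusted p = 0.0546) and without ESC passage 15 (2.25, limma adjusted p = 0.0832). Cldn5, the tight junction protein of endothelium, differed by -3.72 ± 0.60 and F11r (JAM-A) by -3.31 ± 0.39. Cldn5 was well above background on 2 of the 4 MDSC arrays, so its size there rests partly on signals near background.

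Among 21 endothelial transcription factors tested, 10 rose in MDSC and 5 fell, with a median of 0.67. Fli1, an ETS factor well above background on 1 of the 2 ESC arrays, was higher by 5.97 ± 0.68 (limma adjusted p = 0.00202), and Foxc1 by 4.21 ± 0.18 (limma adjusted p = 1.97e-04). Etv2, an ETS factor that directs early endothelial fate, was well above background only in ESC and lower in MDSC by at least 12.6-fold (limma adjusted p = 0.00117). Sox18 was likewise seen only in ESC, at least 2.52-fold above MDSC (limma adjusted p = 0.0148), a call lost without ESC passage 15 (limma adjusted p = 0.0727). Erg, another ETS factor of endothelium, and Prox1, of lymphatic endothelium, were well above background on no array.

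Of 20 other endothelial genes tested, 8 rose and 5 fell in MDSC against ESC, with a median of 1.03. Aqp1, a water channel, was higher by 6.72 ± 1.54 (limma adjusted p = 0.0163). Cd93, well above background on 1 of the 2 ESC arrays, was higher by 6.17 ± 0.74 (limma adjusted p = 0.00232). It read 0.03 and -1.18 in WT and 1.76 and 4.12 in Mstn-null, the order of the macrophage and myeloid list over the MDSC arrays. The part of myeloid cells in the Cd93 difference was not tested. The ESC arrays were far apart for Aqp1, at 1.68 in passage 12 and -3.93 in passage 15, and the difference was 9.53 without the first and 3.92 without the second. Rasip1, which acts in vessel lumen formation, differed by -4.87 ± 0.30 (limma adjusted p = 4.49e-04) and Mmrn2 by -3.71 ± 0.52 (limma adjusted p = 0.00359). Lyve1, Mmrn1 and Adgrl4 were well above background on no array, nor were the receptors Flt4 and Calcrl or the adhesion molecule Sele. No list had a gene that passed in Mstn-null against WT. The lists of companion genes are read as counts beside the share of all features that passed, 59.6%, and none is called particular from it.

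**Figure D5:**
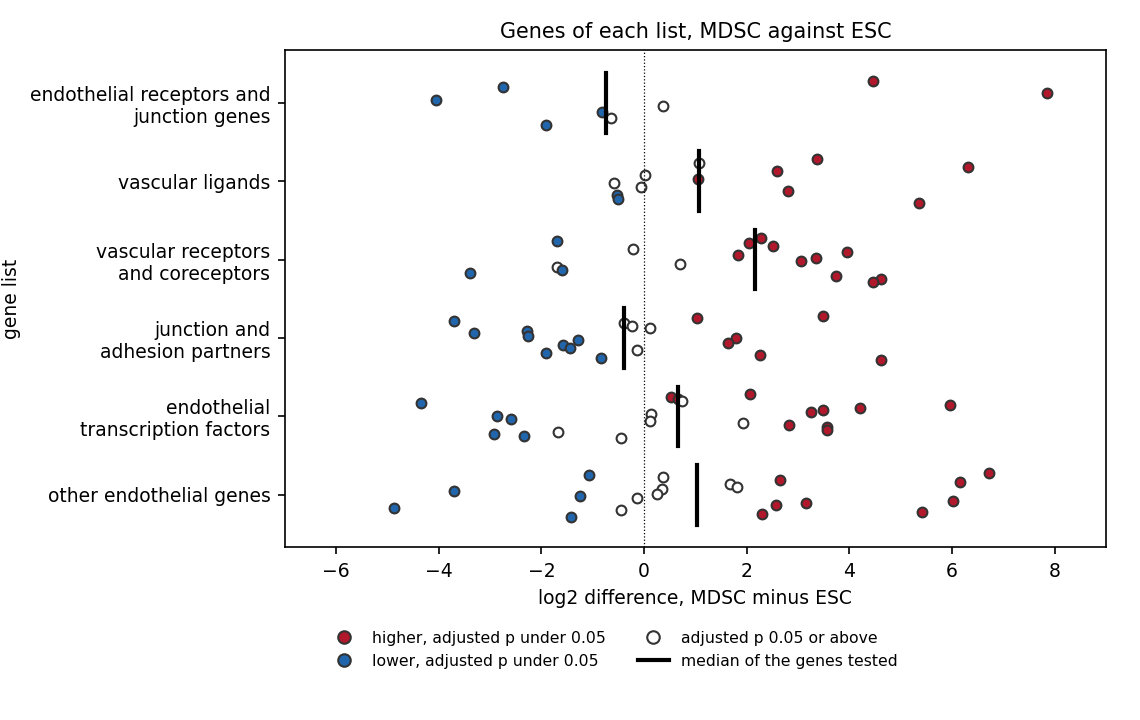
Log2 difference of MDSC minus ESC (x axis) for each tested gene of the members and 5 companion lists, coloured by direction where the adjusted p was under 0.05, with a bar at the median of each list. Every list holds genes on both sides of 0; medians run from -0.74 for the members to 2.16 for receptors and coreceptors.

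For the tested members other than Kdr, the named genes whose 6 values lay closest to its own, after each was centred on its mean, were sought among 15476 genes; the measure is the root mean square difference over the 6 arrays. Esm1 was closest to Hspb7 (0.55) and Ccl9 (0.68), and Cdh5 to Aldh1l2 (0.43) and Bmp5 (0.44). Flt1 was closest to Cth (0.16) and Zcwpw1 (0.21), Egfl7 to Pcyt1b (0.085) and Rrp1b (0.11), and Vwf to Mybpc3 (0.24) and Acap1 (0.31). Pecam1 was closest to Mt4 (0.064) and Taf15 (0.073), and Tek to Mtnr1a (0.17) and Fam228b (0.21). None of these neighbours is another member, and the measure is smaller for members that vary little.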

How the data were processed

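Scanner files, 1 per array, came from Agilent Feature Extraction; its release is 10.7.1.1 per the file headers and 9.1 in the submitters' processing notes. The array design is annotated on mm9. The deposited values used were processed intensities, background-subtracted by the scanner software and not normalized between arrays, with its flags for outliers and for signal well above background. Control and outlier-flagged spots were left out, spots of a probe were averaged, and log2 intensity minus the array's 75th percentile was taken. Probes were named through RefSeq accessions (26413 of 55681 probes matched); the probe with the highest mean stood for a gene. Features were kept where any group had both of its arrays well above background, and these 25057 were fitted with limma 3.58.1 in R 4.3.3: 3 group means, contrasts, two-sided moderated test, Benjamini-Hochberg adjustment, threshold 0.05. MDSC averages both genotypes' means with equal weight. ± is the standard error. The fit was tested on simulated data. The number of arrays limits the precision.

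Nothing in the labels says that ESC arrays are independent cultures, so p-values there measure the spread between these samples. The members, lists and tests were chosen with earlier results of these data known. All 10 members are named; from other lists, up to 2 largest rises and falls past the threshold, and for each tested member the 2 genes most alike (those of Kdr are not reported here). Other genes, such as those given as well above background on no array, were picked after their values were seen. Isolation numbers were not treated as pairs: the deviations of WT and Mstn-null isolations with the same number correlated at -0.40 over 25057 features. Alternatives covered normalization, background correction, filters, probe choice, the fit, slide, the isolation block and each array left out.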

Additional observations from a re-analysis of the deposited data

How the results depend on the processing

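Of the members called in MDSC against ESC, Cdh5, Esm1, Flt1, Egfl7 and Pecam1 kept direction and call under every alternative that could give a value (15 for Cdh5 and Esm1, 16 for the others), and Vwf under 14 of 16. Sizes ranged from 1.70 to 4.82 for Cdh5, with the lowest value under normexp background correction, from 5.17 (also normexp) to 8.29 for Esm1 and from -4.46 to -2.98 (normexp) for Flt1. When features had to be well above background on all arrays, Cdh5 and Esm1 were not tested and 1 member was called higher, Kdr. Kdr turned negative with the mean over its probes (-0.42 in MDSC, -0.67 in WT and -0.17 in Mstn-null, each against ESC) and with its other probe (-1.21, -1.67 and -0.75), an alternative chosen after seeing the data. Between genotypes no member was called under any alternative run, and signs turned when 1 array was left out: Esm1 ranged from -0.61 to 0.92 (-0.36 without WT isolation 1), Flt1 from -0.41 to 1.23 and Tek from -0.15 to 1.42. Tek in Mstn-null against ESC ranged from -1.12 to 0.45. Leaving out 1 array gave 2 members called higher throughout and between 3 and 5 called lower. With the isolation number as a replicate block, 0 members were called between genotypes, as with the crossed pairing, added after seeing the data. Counts of the companion lists in MDSC against ESC moved by over 1.5 times under some alternatives: rises ranged from 3 to 6 for junction partners, 5 to 9 for other endothelial genes, 5 to 16 for myeloid, 2 to 6 for pericyte, 3 to 8 for myogenic and 0 to 2 for early mesoderm genes, and falls from 0 to 2 for ligands, 1 to 3 for receptors, 5 to 9 for junction partners, 1 to 7 for transcription factors, 6 to 12 for pluripotency and 1 to 7 for early mesoderm genes. Platelet rises ranged from 4 to 6. The alternatives did not all test the same genes. Requiring signal well above background on all arrays left 19853 features and dropped genes dim on any array, such as the pluripotency gene Zfp42. Low counts under that filter therefore reflect in part fewer genes tested, and not only calls that were lost. Median centring moved the median of all features in MDSC against ESC from -0.03 to 0.12. Members below background have no level here, and 2 arrays per group limit all intervals.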

Other observations

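Of the 9 early mesoderm and trophoblast genes tested, 5 fell and 1 rose in MDSC against ESC. In that comparison 31.4% of all features fell and 28.3% rose. T (brachyury), a mesoderm factor, was well above background only in ESC and lower in MDSC by at least 13.8-fold (limma adjusted p = 7.15e-05), and Tfap2c, a trophoblast and germ-line factor, differed by -8.63 ± 0.71 on the log2 scale (limma adjusted p = 8.78e-04), though it was well above background on 1 of the 4 MDSC arrays, so that size rests on signals near background. The gene that rose was Pdgfra, which also stands in the fibroblast list, by 4.76 ± 1.15 (limma adjusted p = 0.0194). Its call was lost without Mstn-null isolation 1 (limma adjusted p = 0.0520), and the difference was 6.82 without ESC passage 12 and 2.70 without passage 15. Of 8 myogenic genes tested, 6 rose and none fell, with Myog at least 42.3-fold higher (limma adjusted p = 0.00236) and Tnnt2 higher by 5.65 ± 0.90 (limma adjusted p = 0.00531). The summed relative signal of the myogenic list was 123 in WT isolation 1 and between 21.5 and 26.6 in the other 3 MDSC isolations.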
